A study of Homo sapiens with 52 samples.

Results

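NQO1, HMOX1, GCLC, GCLM, TXNRD1, SRXN1, SLC7A11, GPX3 and GPX4 are genes of the NRF2 response and of glutathione defence. They were picked by gene symbol, with earlier results of these data known, and make up 9 of the 78894 genes in the deposited tables. Bulk polyA-selected, strand-specific mRNA sequencing was carried out in 3 established claudin-low breast cancer cell lines, SUM159PT, MDA-MB-231 and HS578T, after knockdown of NRP1, a transmembrane co-receptor that is also made in soluble forms. Each cell line had 6 treatments. Cells transfected with 20 nM siRNA received the non-targeting control siNT, siNRP1#3 or siNRP1#5, and RNA was taken after 72 hrs. Cells transduced with lentivirus and selected with puromycin carried the non-targeting control shNT, shNRP1#3 or shNRP1#5, and RNA was taken 48 hrs after seeding. Reagents numbered 3 target the transmembrane forms, and those numbered 5 target transmembrane and soluble forms. siNRP1#5 and shNRP1#5 share the same sequence, while siNRP1#3 and shNRP1#3 do not. There were 52 samples in 18 groups of 3, except that SUM159PT siNRP1#5 had replicates 2 and 3 only, and for HS578T shNRP1#3 replicates 1 and 2 were at hand. The authors state that they took out 2 outlier samples in quality control. shRNA replicates were consecutive passages of transduced cells, so p-values measure only the spread between these samples.

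NRF2, encoded by NFE2L2, is a transcription factor that KEAP1 holds low in unstressed cells by directing it to degradation. Oxidants and electrophiles modify KEAP1, NRF2 then accumulates, pairs with small MAF proteins and binds antioxidant response elements, where BACH1 acts as a competing repressor. Its targets make glutathione (SLC7A11 imports cystine, GCLC and GCLM form the rate-limiting ligase), reduce thioredoxin and peroxiredoxins (TXNRD1, SRXN1), and detoxify quinones and heme (NQO1, HMOX1). GPX3, which is secreted, and GPX4, which removes lipid peroxides and restrains ferroptosis, use glutathione to reduce peroxides, and like TXNRD1 they are selenoproteins.

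The core letters of the antioxidant response element, TGACNNNGC, were searched on both strands of the RefSeq promoter windows (GRCh38.p14, 250 bases before to 50 after each start). The table held windows for 7 of the 9 genes. HMOX1 and SLC7A11 had no entry. Of the 10 windows of these genes 3 held a match, and 13.3% of all 35116 windows did. The first letters, TGAC, also begin the AP-1 type motif TGACTCA, so the searches can overlap. The matched stretches are shown because GCLM and TXNRD1 were the members with a match. Capitals mark the match, in the direction of the gene, and a match is a description of letters and not of binding. The GCLM match, read against the direction of this minus-strand gene, is centred 30 bases before the start at chr1:93909446-93909474. The first TXNRD1 window held 2 matches, and the one shown is centred 95 bases before the start on the plus strand at chr12:104215670-104215698. A second TXNRD1 start has a match 98 bases before it at chr12:104286920-104286948, read against the direction of the gene.
GCLM, reverse complement of the motif: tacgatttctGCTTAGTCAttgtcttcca
TXNRD1, first start: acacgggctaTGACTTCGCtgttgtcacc
TXNRD1, second start, reverse complement of the motif: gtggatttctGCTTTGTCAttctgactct

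Expected counts added up to between 25310443 and 72003442 per sample (median 44804505), and levels are given as CPM (counts scaled to the same library size) after TMM normalisation unless TPM is named. NRP1 was lower than in its control in all 12 knockdown comparisons, by between -0.70 and -4.88 on the log2 scale, and the difference was called in 11 (HS578T shNRP1#3 fell short at -1.59, adjusted p = 0.069). Claudin-low cells lack CLDN3, CLDN4, CLDN7, CDH1 and EPCAM, but CLDN4 was at 62.6 to 226 TPM and EPCAM at 17.6 to 35.2 TPM in MDA-MB-231. VIM was at 1310 to 6090 TPM in every sample. Genes that are near 0 in HS578T and abundant in MDA-MB-231 reached, in the HS578T siNRP1#5 replicates 1, 2 and 3, 26.0, 16.7 and 13.4% of the level they have in MDA-MB-231 controls. They stood at 2.15 to 7.17% in siNRP1#3, at 0.636 to 2.01% in siNT and at no more than 0.395% in the HS578T shRNA samples. Replicate 2 of HS578T siNRP1#5 also carried SUM159PT marker genes at 5.43% of their level. Calls of members in the HS578T siRNA groups are therefore given as deposited and after subtraction of the counts that such RNA would bring. Other values of these groups are as deposited unless the subtraction is named. In bulk samples, fewer cells of a type and less RNA per cell cannot be told apart.

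**Figure D1:**
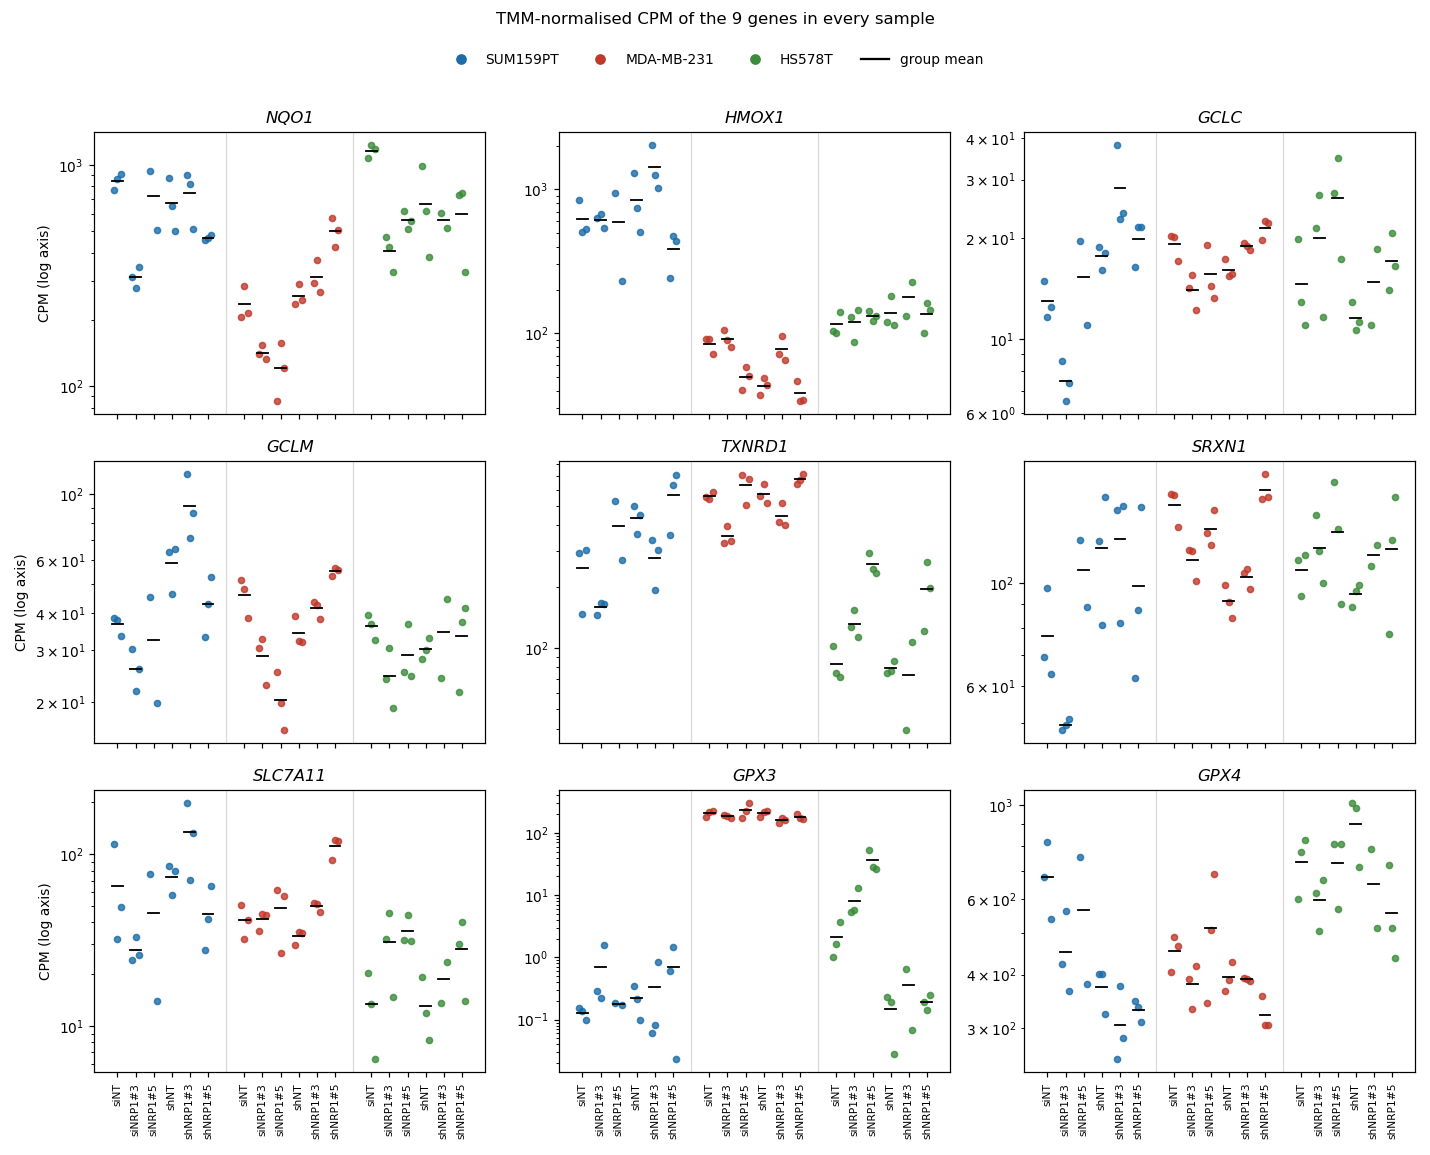
TMM-normalised CPM on log axes for each of the 9 genes, with a point per sample, a bar at each group mean and colours for the 3 cell lines. GPX3 separates MDA-MB-231 from the other lines in every group, and NQO1 is lowest within each line in siNRP1#3 or siNRP1#5 samples.

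In the non-targeting controls (3 siNT and 3 shNT samples per line), the 3 cell lines differed most in GPX3. Its mean was 223 ± 23.1 TPM in MDA-MB-231 (SD, n = 6), against 0.203 ± 0.0952 TPM in SUM159PT and 0.738 ± 0.773 TPM in HS578T. HMOX1 was at 651 ± 285 TPM in SUM159PT, above the 72.3 ± 24.1 TPM of MDA-MB-231 and the 84.0 ± 19.0 TPM of HS578T. TXNRD1 ran from 288 ± 42.4 TPM in MDA-MB-231 through 146 ± 64.3 TPM in SUM159PT to 26.6 ± 6.15 TPM in HS578T, and SLC7A11 was also lowest in HS578T at 1.36 ± 0.661 TPM. GPX4 was among the most abundant of the 9 genes per length in each line, with means of 1020 ± 272, 1080 ± 75 and 1210 ± 187 TPM in SUM159PT, MDA-MB-231 and HS578T, and these ranges overlapped.

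**Figure D2:**
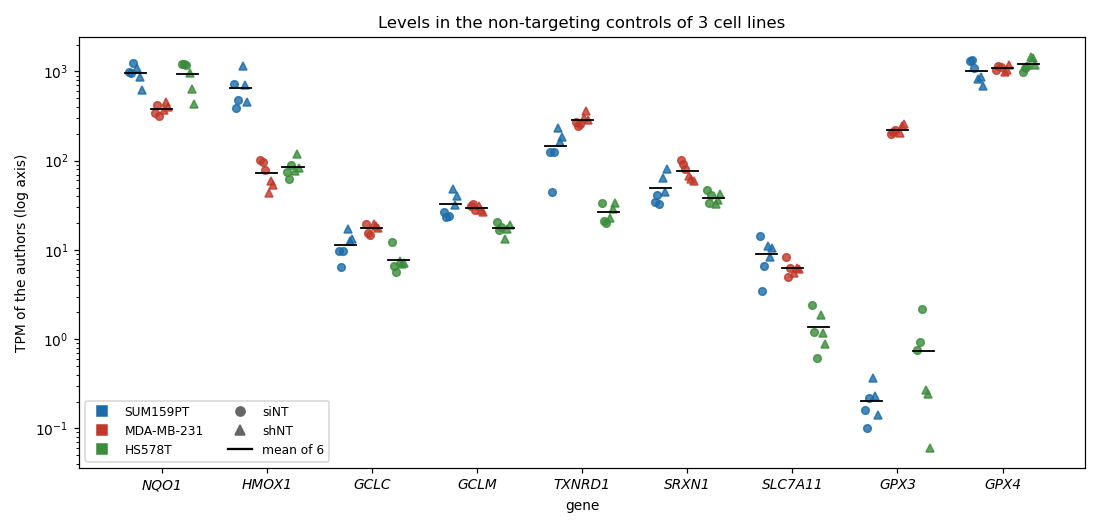
TPM (log axis) of the 9 genes in the 6 non-targeting controls of each cell line, circles for siNT, triangles for shNT and bars for the mean of 6. MDA-MB-231 has GPX3 at 199 to 258 TPM, while the other lines stay at or below 2.16 TPM.

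Compared with MDA-MB-231, SUM159PT had 3 members called higher and 2 lower by the quasi-likelihood test of edgeR (Benjamini-Hochberg adjusted p over 23416 genes), where 59.4% of all genes were called, 31.8% higher and 27.6% lower. Between HS578T and MDA-MB-231 the count was 3 higher and 4 lower (70.2% of all genes, 34.9% higher and 35.4% lower), and between HS578T and SUM159PT it was 2 higher and 4 lower (63.5%, 29.8% higher and 33.7% lower). These shares do not set the members apart from other genes. NQO1 was higher in SUM159PT (log2 difference 1.62 ± 0.191 SE) and in HS578T (1.84 ± 0.193) than in MDA-MB-231. HMOX1 exceeded MDA-MB-231 by 3.58 ± 0.262 in SUM159PT and by 1.06 ± 0.239 in HS578T, although with TPM the second difference was 0.26 (adjusted p = 0.332) and in siNT samples alone it was 0.46 (adjusted p = 0.0973). TXNRD1 was lower in SUM159PT by -0.78 ± 0.199 and in HS578T by -2.80 ± 0.212. SLC7A11 was lower in HS578T than in either of the other lines (-1.48 ± 0.345 against MDA-MB-231 and -2.39 ± 0.355 against SUM159PT). GPX4 was called higher in HS578T by 0.95 ± 0.162 than in MDA-MB-231 and by 0.69 ± 0.161 than in SUM159PT on counts, but the first was 0.15 (adjusted p = 0.21) with TPM, and the second was 0.13 (adjusted p = 0.59) in siNT samples alone. For HS578T against MDA-MB-231 the median over all genes was itself -0.61 with TPM, beside 0 on counts. That shift applies to the TPM values of GPX4 and HMOX1 alike. GPX3 in HS578T against SUM159PT, called at 1.75 ± 0.714, turned to -0.40 (adjusted p = 0.567) with shNT controls alone and had no difference left after subtraction of reads of other lines. It was also lost without the replicates numbered 1 or 2 (adjusted p = 0.16 and 0.122). SLC7A11 was called higher in SUM159PT than in MDA-MB-231 by 0.91 ± 0.338, but the difference was 0.53 (adjusted p = 0.327) without the replicates numbered 1, 0.42 (adjusted p = 0.304) with TPM and 0.68 (adjusted p = 0.255) in siNT samples alone. GCLC was lower in HS578T than in MDA-MB-231 by -0.44 ± 0.182, a call lost with DESeq2 (adjusted p = 0.061), with RLE factors (0.0597), in siNT samples alone (0.239) and without the replicates numbered 2 or 3 (0.152 and 0.0969). GCLM was lower in HS578T than in SUM159PT by -0.48 ± 0.178, a call lost in siNT samples alone (-0.01, adjusted p = 0.985) and without the replicates numbered 1 or 3 (0.0767 and 0.0578). SRXN1, at 38.6 ± 5.42 to 76.8 ± 17.1 TPM, was not called between any pair of lines on counts.

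Knockdown of NRP1 was compared with the matching non-targeting control in each line. In SUM159PT, 1 of 9 members was called with siNRP1#3, where 8.66% of 20067 genes were called (5.5% lower), and the member median was -0.63 against -0.01 over all genes. No member was called in SUM159PT with siNRP1#5 (17.9% of genes), shNRP1#3 (1.4%) or shNRP1#5 (5.94%) by edgeR. At an unadjusted p under 0.05 these 3 comparisons had 0, 2 and 1 members, beside 33, 12.6 and 18.6% of all genes. DESeq2 and limma called 0 members in each. In MDA-MB-231, 5 members were lower with siNRP1#3 (25.7% of 18800 genes called, 14.3% lower), 3 were lower with siNRP1#5 (29.4%, 14.9% lower), 1 was higher with shNRP1#3 (3.65%, 1.46% higher) and 5 were higher with shNRP1#5 (20.7%, 8.79% higher). In HS578T, 1 member was lower with siNRP1#3 (4.65% of 19661 genes, 2.34% lower), and 3 were higher and 1 lower with siNRP1#5 (18.7%, 10.1% higher and 8.53% lower). None passed in HS578T with shNRP1#3 (0.0356%) or shNRP1#5 (0.946%) by edgeR. There 0 and 3 had an unadjusted p under 0.05, beside 6.86 and 19.2% of all genes. DESeq2 called 0 and 1 members (146 and 981 genes in all), and limma called 0 members in both. The count of 3 in MDA-MB-231 siNRP1#5 lies near the share of all genes, while the counts of 5 there are above it. The count of 4 in HS578T siNRP1#5 is above it only as deposited. After subtraction of reads of other lines TXNRD1 alone of the 8 members tested was called there, and the calls over all genes went from 3667 to 2735.

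**Figure D3:**
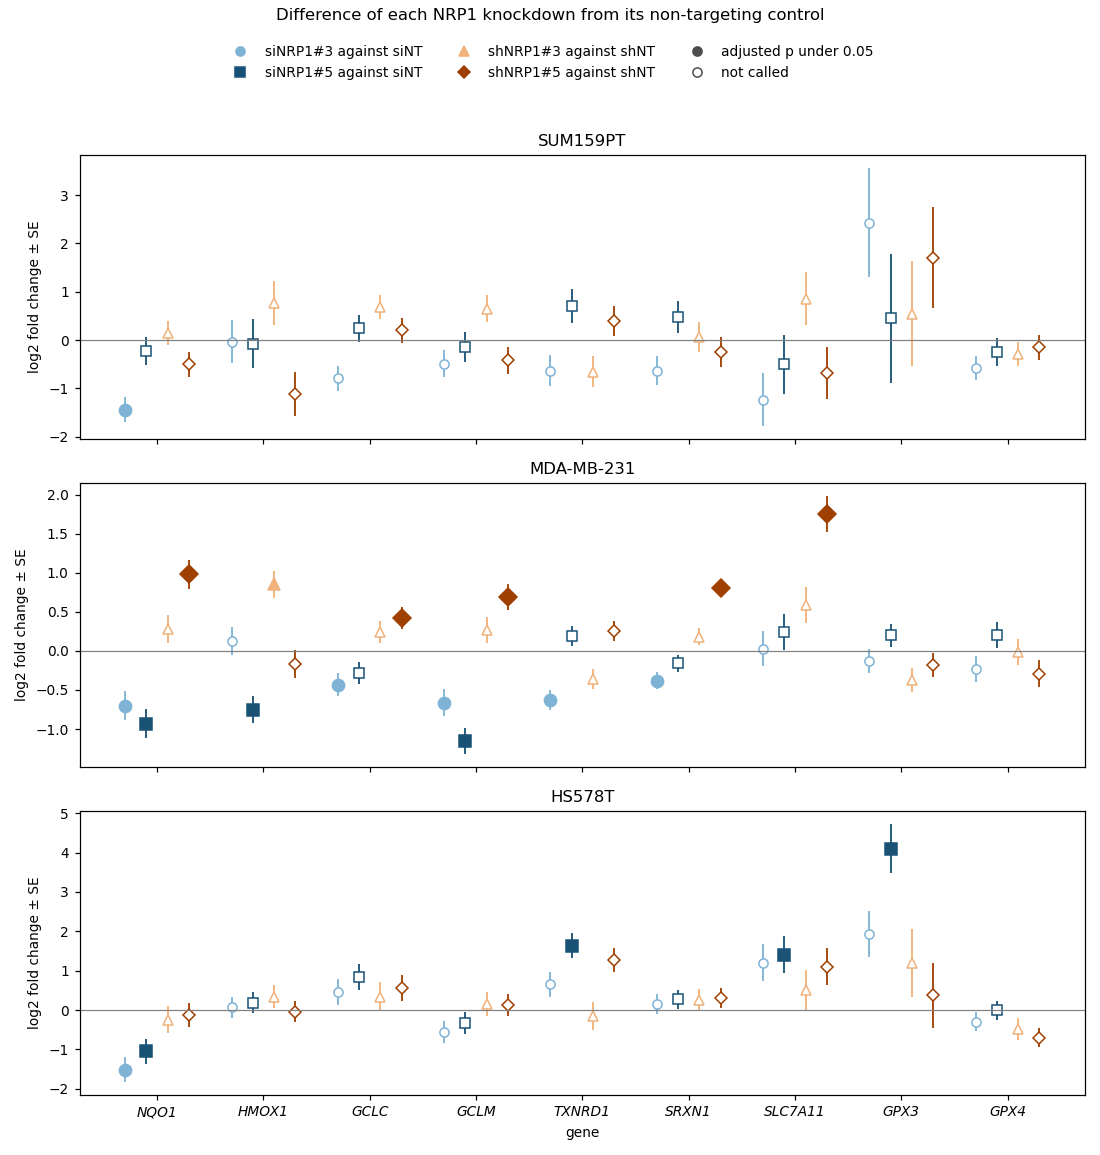
Log2 fold change with its standard error for the 9 genes in each NRP1 knockdown against its control, a panel per cell line with its own vertical scale, filled symbols for adjusted p under 0.05 in edgeR. In MDA-MB-231 the filled siRNA symbols are all below 0 and the filled shRNA symbols are all above 0.

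NQO1 reduces quinones and is a widely used readout of NRF2. It lies at chr16:69706996-69726668 on the minus strand (GRCh38). In SUM159PT it was at 769, 867 and 910 CPM with siNT and at 311, 279 and 345 CPM with siNRP1#3. The groups did not overlap, and NQO1 fell by 1.44 on the log2 scale (SE 0.257, adjusted p = 0.00296), with a range of -1.51 to -1.36 over the 24 alternative settings, all of them past the threshold. In HS578T it was at 1070, 1230 and 1180 CPM with siNT and at 473, 425 and 328 CPM with siNRP1#3. It fell by 1.51 there (SE 0.312, adjusted p = 0.0105), and by 1.49 after subtraction of reads of other cell lines (adjusted p = 0.0185). In MDA-MB-231 the levels were 206, 283 and 215 CPM with siNT and 139, 153 and 133 CPM with siNRP1#3, again without overlap. NQO1 fell by 0.70 in that comparison (SE 0.185, adjusted p = 0.00918), although leaving out siNT replicate 2 gave -0.56 (adjusted p = 0.0564).

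With siNRP1#5, NQO1 fell in 2 of the 3 lines. In MDA-MB-231 it was at 85.3, 157 and 121 CPM and fell by 0.93 (SE 0.186, adjusted p = 0.000925). In HS578T it was at 617, 515 and 558 CPM and fell by 1.05 (SE 0.309, adjusted p = 0.0265). Both groups lay below every siNT sample of their line. The HS578T value became -0.83 (adjusted p = 0.0906) after subtraction of reads of other lines, and the call was also lost on leaving out siNT replicate 2 (-1.01, adjusted p = 0.0774), siNT replicate 3 (-1.03, adjusted p = 0.0634), siNRP1#5 replicate 2 (-0.97, adjusted p = 0.0905) or siNRP1#5 replicate 3 (-1.04, adjusted p = 0.0775). In SUM159PT the 2 samples were far apart, at 934 and 510 CPM, and the difference of -0.22 (SE 0.284) was not called. With shRNA, NQO1 went the other way in MDA-MB-231. It was at 234, 289 and 245 CPM with shNT and at 574, 426 and 509 CPM with shNRP1#5, without overlap, and rose by 0.98 (SE 0.186, adjusted p = 0.00132). In SUM159PT and HS578T the shRNA differences lay between -0.50 and 0.15 and were not called.

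GCLM, the modifier subunit of glutamate-cysteine ligase, lies at chr1:93885199-93909456 on the minus strand. In MDA-MB-231 it was at 51.4, 48.1 and 38.3 CPM with siNT, at 30.5, 32.6 and 22.8 CPM with siNRP1#3 and at 25.3, 19.9 and 16.1 CPM with siNRP1#5. Neither knockdown group overlapped the control, and GCLM fell by 0.66 (SE 0.167, adjusted p = 0.00697) with siNRP1#3 and by 1.15 (SE 0.169, adjusted p = 4.38e-05) with siNRP1#5. With shRNA it was at 38.9, 32.1 and 31.8 CPM in shNT and at 53.0, 56.5 and 55.7 CPM in shNRP1#5. All shNRP1#5 samples were above all shNT samples, and GCLM rose by 0.69 (SE 0.166, adjusted p = 0.0066). These 3 calls held in all 25 alternatives. Outside MDA-MB-231 the knockdown differences of GCLM ran from -0.56 to 0.65 as deposited and none was called. HS578T siNRP1#3 gave -0.60 after subtraction of reads of other lines (adjusted p = 0.327 by edgeR).

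GCLC, the catalytic subunit of the same ligase, lies at chr6:53497341-53616970 on the minus strand and moved less than GCLM in MDA-MB-231. It was at 20.3, 20.2 and 17.1 CPM with siNT and at 14.2, 15.5 and 12.2 CPM with siNRP1#3, and fell by 0.43 (SE 0.143, adjusted p = 0.0319). That call was lost on leaving out siNT replicate 1 (-0.38, adjusted p = 0.11), siNT replicate 2 (-0.41, adjusted p = 0.0887), siNRP1#3 replicate 1 (-0.46, adjusted p = 0.0703) or siNRP1#3 replicate 3 (-0.35, adjusted p = 0.127). It was also lost with limma on log2(TPM + 0.1) (-0.39, adjusted p = 0.146) and with no filter on low counts (-0.44, adjusted p = 0.0779). With shNT it was at 17.4, 15.4 and 15.6 CPM and with shNRP1#5 at 19.8, 22.6 and 22.2 CPM. The groups did not overlap and GCLC rose by 0.42 (SE 0.142, adjusted p = 0.0412), a call lost in 12 of 25 alternatives. With limma on log2(TPM + 0.1) the difference was 0.19 (adjusted p = 0.537), and it lost the call on leaving out any shNT sample (adjusted p = 0.051, 0.133 and 0.136 for replicates 1, 2 and 3), shNRP1#5 replicate 2 (0.134) or shNRP1#5 replicate 3 (0.128), and also on leaving out samples outside the comparison. In SUM159PT siNRP1#3 it was at 8.58, 6.5 and 7.39 CPM against 14.9, 11.6 and 12.5 CPM in siNT. The groups did not overlap, the difference was -0.79 (SE 0.252, adjusted p = 0.0617), and blocking on replicate number gave an adjusted p of 0.047.

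SLC7A11 is the cystine importer subunit that supplies cysteine for glutathione, and lies at chr4:138164097-138242349 on the minus strand. Among the knockdown comparisons of MDA-MB-231, the largest called rise of a member was in this gene. It was at 29.5, 35.0 and 34.8 CPM with shNT and at 91.6, 121 and 119 CPM with shNRP1#5. Every shNRP1#5 sample was over every shNT sample, and SLC7A11 rose by 1.75 (SE 0.233, adjusted p = 8.19e-05), with a range of 1.64 to 1.88 in the alternatives. The shNRP1#3 samples were at 51.5, 50.9 and 46.1 CPM and also lay above shNT, with a difference of 0.59 (SE 0.229, adjusted p = 0.189). No rise appeared with siRNA in this line, where the differences were 0.03 (siNRP1#3) and 0.24 (siNRP1#5). In HS578T it was at 20.3, 13.3 and 6.37 CPM with siNT and at 31.4, 44.1 and 31.3 CPM with siNRP1#5. SLC7A11 rose by 1.41 there (SE 0.47, adjusted p = 0.0452), but the call was lost after subtraction of reads of other lines (1.42, adjusted p = 0.0718) and on leaving out siNT replicate 2 or 3, any siNRP1#5 sample, siNRP1#3 replicate 1 or shNT replicate 2. The adjusted p was then 0.0552 to 0.164, the highest without siNT replicate 3 (1.08). SUM159PT samples were widely spread, for example 198, 70.5 and 132 CPM with shNRP1#3, and none of the 4 differences (-1.23 to 0.86) was called.

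TXNRD1, cytosolic thioredoxin reductase, lies at chr12:104215779-104350307 on the plus strand. In MDA-MB-231 it was at 549, 542 and 583 CPM with siNT and at 329, 399 and 337 CPM with siNRP1#3. The groups did not overlap and TXNRD1 fell by 0.63 (SE 0.13, adjusted p = 0.00149), a call kept in all 25 alternatives. With siNRP1#5 it stayed near the control, at 705, 504 and 680 CPM (0.19, SE 0.129, adjusted p = 0.287). HS578T differed from this. There it was at 102, 75.3 and 71.7 CPM with siNT, at 127, 153 and 113 CPM with siNRP1#3 and at 294, 244 and 233 CPM with siNRP1#5. TXNRD1 rose by 1.63 with siNRP1#5 (SE 0.319, adjusted p = 0.00271), and still by 1.32 (SE 0.347, adjusted p = 0.0194) after subtraction of reads of other lines. The shRNA with the same sequence gave 121, 264 and 196 CPM against 74.8, 77.2 and 86.1 CPM in shNT, again above every control. That difference, 1.27 (SE 0.316), missed the threshold with edgeR (adjusted p = 0.0673) and passed it with DESeq2 (1.23, adjusted p = 0.00928). These HS578T shRNA samples carried no more than 0.395% of MDA-MB-231 marker levels.

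SRXN1, sulfiredoxin, repairs over-oxidised peroxiredoxins and lies at chr20:646615-653200 on the minus strand. In MDA-MB-231 it was at 99.1, 91.2 and 83.9 CPM with shNT and at 152, 172 and 153 CPM with shNRP1#5. The ranges lay apart and SRXN1 rose by 0.81 (SE 0.11, adjusted p = 8.26e-05). With siNT it was at 156, 155 and 132 CPM and with siNRP1#3 at 118, 117 and 101 CPM. SRXN1 fell by 0.38 (SE 0.11, adjusted p = 0.0161) in that comparison, and the call was lost on leaving out siNT replicate 1 (-0.33, adjusted p = 0.0743), siNT replicate 2 (-0.36, adjusted p = 0.0545) or siNRP1#3 replicate 3 (-0.31, adjusted p = 0.0761). It was also lost with no filter on low counts (-0.39, adjusted p = 0.0513). In SUM159PT, siNRP1#3 samples were tightly grouped at 48.1, 49.3 and 50.9 CPM, below siNT at 69.1, 97.8 and 63.8 CPM, with a difference of -0.63 (SE 0.308, adjusted p = 0.214). HS578T differences ran from 0.16 to 0.30 as deposited, and siNRP1#5 gave 0.32 after subtraction of reads of other lines.

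HMOX1, the inducible heme oxygenase, lies at chr22:35380361-35394214 on the plus strand and in MDA-MB-231 was called with siNRP1#5 and with shNRP1#3. It was at 91.2, 91.5 and 71.7 CPM with siNT, at 106, 89.0 and 79.8 CPM with siNRP1#3 and at 40.5, 58.2 and 50.8 CPM with siNRP1#5. HMOX1 fell by 0.75 with siNRP1#5 (SE 0.178, adjusted p = 0.00373) and did not differ detectably with siNRP1#3 (0.13, SE 0.177, adjusted p = 0.622). With shNT it was at 37.2, 48.8 and 43.9 CPM, with shNRP1#3 at 71.8, 96.2 and 65.4 CPM and with shNRP1#5 at 46.8, 33.6 and 34.2 CPM. All shNRP1#3 samples were above the controls, and HMOX1 rose by 0.85 (SE 0.178, adjusted p = 0.0094). Leaving out shNRP1#3 replicate 2 (0.68, adjusted p = 0.0656) or shNT replicate 1 (0.75, adjusted p = 0.0569) ended that call. The shNRP1#5 difference was -0.17 (SE 0.177). In SUM159PT the gene was abundant but variable, from 229 to 2030 CPM over the 17 samples, and in HS578T it ran from 86.4 to 226 CPM.

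GPX3, secreted glutathione peroxidase, lies at chr5:151020591-151028988 on the plus strand. In MDA-MB-231 it was at 145 to 301 CPM in all 18 samples and was not called in any knockdown comparison. In HS578T it was at 1.02, 1.61 and 3.63 CPM with siNT, at 5.31, 5.68 and 13.2 CPM with siNRP1#3 and at 53.1, 28.7 and 26.3 CPM with siNRP1#5. All siNRP1#5 samples were above all others, and GPX3 was called higher by 4.10 (SE 0.63, adjusted p = 0.000567). Its level followed the share of MDA-MB-231 marker RNA in the same samples. Whether this GPX3 RNA came from MDA-MB-231 or from HS578T cells was not tested. As a percent of the MDA-MB-231 control mean, GPX3 was at 25.9, 14.0 and 12.8% in siNRP1#5 replicates 1 to 3, where other MDA-MB-231 markers were at 26.0, 16.7 and 13.4%. In siNRP1#3 it was at 2.59, 2.77 and 6.44% beside 2.15, 2.98 and 7.17%. After subtraction of reads of other cell lines GPX3 in HS578T no longer passed the filter on low counts and had no value. In the HS578T shRNA samples it had 1 to 27 expected counts.

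**Figure D4:**
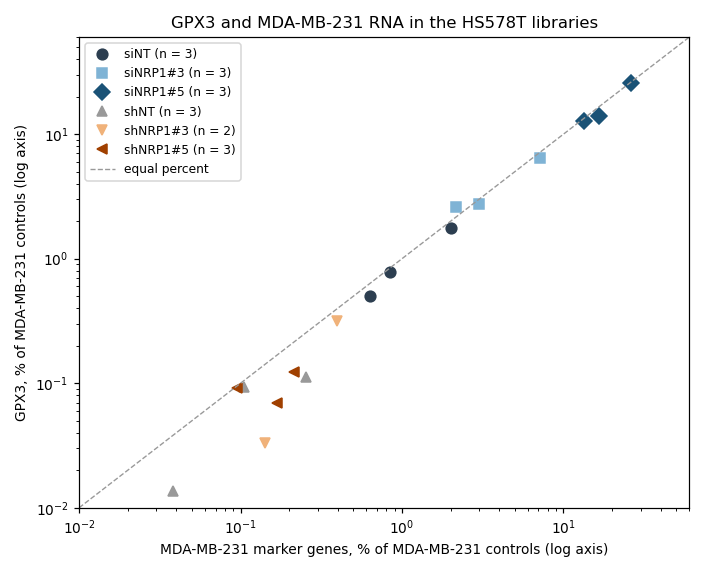
GPX3 in the 17 HS578T samples as a percent of its mean in the MDA-MB-231 non-targeting controls (vertical, log axis) against the median percent over 17 marker genes of MDA-MB-231 (horizontal, log axis), with a dashed line at equal percents. The siRNA samples lie along the line up to 25.9% for GPX3 and 26.0% for the markers.

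GPX4, the phospholipid hydroperoxide glutathione peroxidase, lies at chr19:1103982-1106791 on the plus strand and was not called in any knockdown comparison. In SUM159PT it was at 676, 816 and 540 CPM with siNT and at 424, 563 and 366 CPM with siNRP1#3, with overlap. The difference was -0.58 (SE 0.254, adjusted p = 0.168), and blocking on replicate number gave an adjusted p of 0.0434. In MDA-MB-231 the 4 differences lay between -0.29 and 0.20. In HS578T shNRP1#5 it was at 723, 514 and 438 CPM against 1010, 984 and 715 CPM in shNT, a difference of -0.70 (SE 0.245, adjusted p = 0.163).

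siNRP1#5 and shNRP1#5 carry the same sequence, so their effects against their own controls could be set against each other by an interaction term. In MDA-MB-231, 5 of 9 members were called, all with a lower value for the siRNA effect, where 23.7% of all genes were called in either direction and 11.4% in this one. The siRNA effect minus the shRNA effect was -1.91 (SE 0.263, adjusted p = 4.5e-05) for NQO1 and -1.84 (SE 0.237, adjusted p = 2.22e-05) for GCLM, which fell with one delivery and rose with the other. It was -1.51 (SE 0.323, adjusted p = 0.0025) for SLC7A11 and -0.96 (SE 0.156, adjusted p = 0.000207) for SRXN1, whose shRNA effects were called and siRNA effects were not. GCLC gave -0.70 (SE 0.202, adjusted p = 0.0162), or -0.63 (adjusted p = 0.0918) with TPM. NRP1 itself differed, at -4.88 with siNRP1#5 and -1.05 with shNRP1#5. The controls differed in NRP1 too, with shNT above siNT by 1.23 (SE 0.147) in this line. NRP1 was at 84.9 ± 8.16 CPM with shNRP1#5, so not below the 73.8 ± 11.5 CPM of siNT. Delivery, puromycin selection, harvest time and the depth of knockdown cannot be told apart in this comparison. In SUM159PT (2.51% of genes) and HS578T (0.854%) edgeR called 0 members. In SUM159PT 0 had an unadjusted p under 0.05 (20.5% of all genes had), and DESeq2 and limma called 0. In HS578T each of these counts was 1, where 12.8% of all genes had an unadjusted p under 0.05. That member was GPX3 for DESeq2 (3.78, adjusted p = 0.00466) and for limma.

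**Figure D5:**
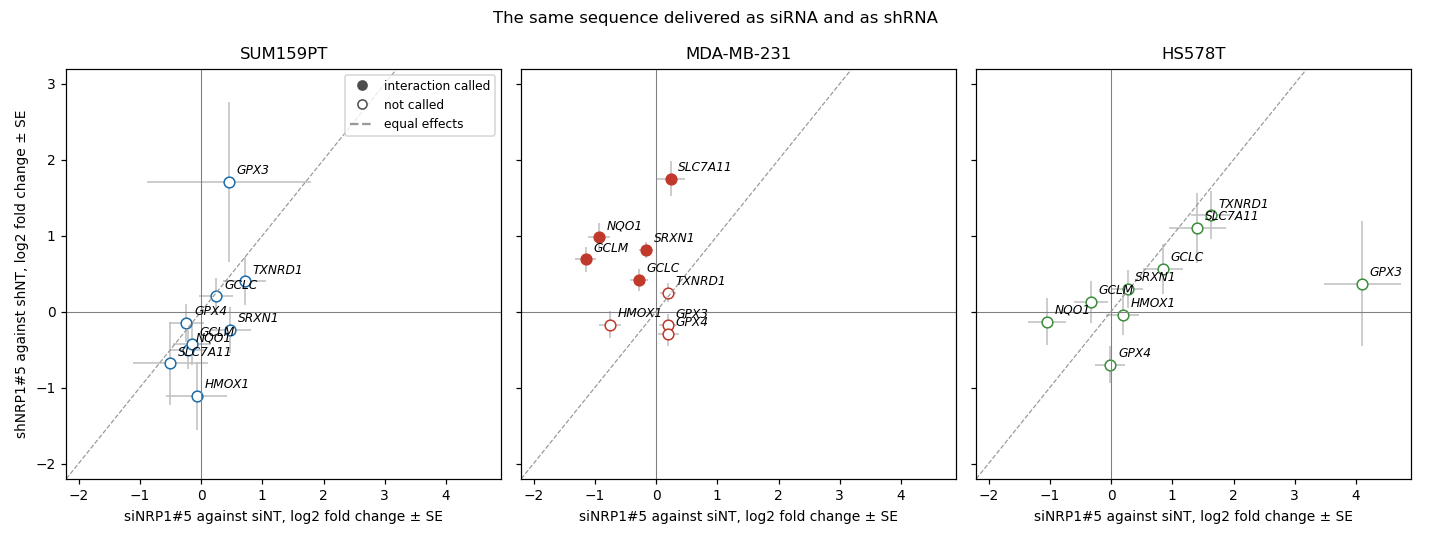
Log2 fold change of siNRP1#5 against siNT (horizontal) and of shNRP1#5 against shNT (vertical), each with its standard error, for the 9 genes in each cell line. Filled points mark a called interaction, which 5 genes in MDA-MB-231 have, and the dashed line marks equal effects.

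Set directly against each other, the reagents numbered 5 and 3 differed in TXNRD1 in all 3 lines. In SUM159PT siRNA, 4 members were higher with siNRP1#5 (29.7% of all genes called, 16% higher), NQO1 by 1.22, GCLC by 1.04, TXNRD1 by 1.34 and SRXN1 by 1.12. The siNRP1#5 samples had 934 and 510 CPM of NQO1 and 527 and 270 CPM of TXNRD1, so replicate 2 was the higher in each. Without it the 4 differences became 0.69, 0.53, 0.75 and 0.83 and none was called (adjusted p = 0.0992, 0.199, 0.16 and 0.138). SRXN1 also lost its call without siNRP1#3 replicate 1 or 2 (adjusted p = 0.0597 and 0.0501), and GCLC, TXNRD1 and SRXN1 lost theirs with limma on TPM. With only the groups compared, GCLC gave 1.03 (adjusted p = 0.0658). In MDA-MB-231 siRNA (39%, 20% higher and 18.9% lower), TXNRD1 was higher with siNRP1#5 by 0.82 (SE 0.13, adjusted p = 5.91e-05), HMOX1 lower by -0.88 (SE 0.178) and GCLM lower by -0.49 (SE 0.168, adjusted p = 0.0266). The GCLM call was lost without siNRP1#3 replicate 1 (-0.43, adjusted p = 0.0946), siNRP1#3 replicate 2 (-0.39, adjusted p = 0.118), siNRP1#5 replicate 2 (-0.48, adjusted p = 0.0648) or siNRP1#5 replicate 3 (-0.33, adjusted p = 0.118). It was also lost with only the groups compared (-0.49, adjusted p = 0.127). In HS578T siRNA (18.1%, 9.21% higher), TXNRD1 was higher by 0.97 (adjusted p = 0.041) and GPX3 by 2.16 (adjusted p = 0.0171). After subtraction of reads of other lines TXNRD1 gave 0.77 (adjusted p = 0.137) and GPX3 had no value. With limma on TPM TXNRD1 gave 0.60 (adjusted p = 0.393), and on leaving out single samples TXNRD1 lost its call 8 times (adjusted p up to 0.127, without siNRP1#3 replicate 1) and GPX3 lost it 3 times (up to 0.0899, without the same sample).

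With shRNA, HMOX1 was lower for shNRP1#5 than for shNRP1#3 in 2 lines. In SUM159PT (8.71% of genes called, 4.91% higher and 3.8% lower, and 3 members) it was at 242, 472 and 437 CPM against 2030, 1260 and 1020 CPM, without overlap, and the difference was -1.88 (SE 0.459, adjusted p = 0.017). Without shNRP1#3 replicate 1 it was -1.57 (adjusted p = 0.0758) and without shNRP1#5 replicate 1 it was -1.63 (adjusted p = 0.08). GCLM was lower in the same comparison by -1.07 (SE 0.279, adjusted p = 0.024), and by -0.87 (adjusted p = 0.119) without shNRP1#3 replicate 1. Leaving out shNRP1#3 replicate 3, shNRP1#5 replicate 1 or shNRP1#5 replicate 2 also ended that call (adjusted p = 0.0512, 0.109 and 0.0797). TXNRD1 was higher by 1.05 (SE 0.318, adjusted p = 0.0494), a call at the threshold that was lost in 15 of 24 alternatives, with the highest adjusted p, 0.192, without shNRP1#3 replicate 2. In MDA-MB-231 (14.2% of genes, 5.96% higher and 8.24% lower, and 5 members), HMOX1 was lower by -1.02 (SE 0.179), while SLC7A11 was higher by 1.16 (SE 0.23), NQO1 by 0.70 (SE 0.185), SRXN1 by 0.63 (SE 0.11) and TXNRD1 by 0.61 (SE 0.13). Of these only NQO1 (adjusted p = 0.0171) lost its call in an alternative, without shNRP1#3 replicate 1 or 3 (adjusted p = 0.0617 and 0.0794) or without shNRP1#5 replicate 1 or 3 (0.066 and 0.0584). In HS578T (0.544%) no member was called by edgeR and limma called 0. TXNRD1 was the member with an unadjusted p under 0.05, where 10.8% of all genes had one. It was called by DESeq2 alone (1.39, adjusted p = 0.0109).

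The control treatments differed as well, and here delivery, selection and harvest time cannot be told apart. In MDA-MB-231 shNT, HMOX1 fell by 1.00 from its siNT level (SE 0.179, adjusted p = 0.000694) and SRXN1 fell by 0.72 (SE 0.11, adjusted p = 0.000172), 2 of 9 members where 20.6% of genes were called (9.85% lower). In SUM159PT, GPX4 was at 401, 401 and 323 CPM with shNT, below every siNT sample, a difference of -0.88 (SE 0.256, adjusted p = 0.0316). It was 1 of 9 members against 14.4% of genes (8.45% lower), and the call was lost on leaving out any shNT sample (adjusted p = 0.0738, 0.0548 and 0.138 for replicates 1, 2 and 3), siNT replicate 1 (0.0769) or siNT replicate 2 (0.101). In HS578T (17.9%, 8.8% lower) GPX3 alone was called, at -3.74 (SE 0.735), and it had no value after subtraction of reads of other lines.

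An F test in the model of all 52 samples asked whether a knockdown effect was equal in the 3 lines. It called TXNRD1 (adjusted p = 0.0215) and GPX3 (adjusted p = 0.00192) for siNRP1#5, where 18.2% of 23416 genes were called, and NQO1 (adjusted p = 0.0288) for shNRP1#5 (3.81%). The TXNRD1 effects were 0.71 (SUM159PT), 0.19 (MDA-MB-231) and 1.63 (HS578T). The adjusted p was 0.167 after subtraction of reads of other lines, 0.195 without the replicates numbered 3 and 0.0775 with limma on TPM. GPX3 had an adjusted p of 1 after that subtraction, 0.122 without replicates 1 and 0.0738 without replicates 2. The NQO1 effects were -0.50, 0.98 and -0.13, and the call was lost without replicates 1 (adjusted p = 0.544) or 2 (0.209) and with only the groups compared (0.0805). For siNRP1#3 (3.42%) and shNRP1#3 (0.747%) edgeR called 0 members. There 4 and 0 had an unadjusted p under 0.05, as had 16.2 and 6.48% of all genes. DESeq2 called 3 and 0 members (1523 and 404 genes in all), and limma called 0 members in both. Whether NQO1 fell equally with siNRP1#3 in the 3 lines, with effects of -1.44, -0.70 and -1.51, was thus not shown either way.

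Across the 18 groups the order of levels was rarely sharp between neighbours. Of the 17 neighbouring pairs of group means per gene, between 14 (GPX3) and 17 (GPX4) had overlapping ranges. NQO1 was highest in HS578T siNT (1160 ± 81.9 CPM) and lowest in MDA-MB-231 siNRP1#5 (121 ± 35.9 CPM). HMOX1, GCLC, GCLM and SLC7A11 were each highest in SUM159PT shNRP1#3, at 1440 ± 528, 28.3 ± 8.53, 91.6 ± 23.2 and 134 ± 63.8 CPM. GPX4 ran from 304 ± 64 CPM in SUM159PT shNRP1#3 to 903 ± 163 CPM in HS578T shNT. TXNRD1 and SRXN1 were highest in MDA-MB-231 shNRP1#5, at 676 ± 38.1 and 159 ± 11.3 CPM.

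The isoform percent is each transcript's share of its gene's TPM, as estimated by the authors. SRXN1 has a single transcript in the table, and SLC7A11-201, GPX3-201 and HMOX1-201 held medians of 98.5, 95.9 and 94.3% over the 52 samples. In HS578T, SLC7A11-201 was at 75.0 ± 6.84% with siNRP1#5 (67.45 to 80.8%) and at 92.8 ± 6.6% with siNT (87.07 to 100%). These ranges did not overlap, and siNRP1#3 ran from 70.51 to 92.32%. GPX4-210 held 70.5% and stayed between 63.42 and 74.31% in all samples, and NQO1-206 held 43.0% (37.45 to 49.93%). TXNRD1 varied more. Its transcript TXNRD1-210 was at 27.7 ± 3.58% in HS578T siNT (SD, n = 3), 33.2 ± 1.29% in siNRP1#3 and 45.5 ± 1.49% in siNRP1#5, and these 3 ranges did not overlap. In the HS578T shRNA groups it was at 36.5 ± 2.92% with shNT, 52.2 ± 8.86% with shNRP1#3 (n = 2) and 45.0 ± 3.52% with shNRP1#5. In MDA-MB-231 its group means stayed between 34.0 and 37.6%. These shares are a description with no test. For the HS578T siRNA groups they are as deposited, with no subtraction of reads of other lines. The siNRP1#5 samples there carried MDA-MB-231 marker genes at 13.4 to 26.0% of their level. The part of such RNA in these shares was not tested.

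After the mean of each cell line was subtracted from log2 CPM, correlations over the 52 samples (which share controls, passages and library composition) described which genes moved alike. GCLC went with SLC7A11 (r = 0.76), GCLM (0.68), SRXN1 (0.68) and TXNRD1 (0.67). NQO1 went with GCLM (0.54) but hardly with HMOX1 (0.06) or TXNRD1 (0.04), and GPX4 ran against GCLC and GCLM (-0.50 each). Among all genes, the most alike to NQO1 was TRIM16L (0.78), to GCLM PYGO1 and NMRAL2P (0.84 each), to TXNRD1 PRKAG2 (0.84), to SRXN1 EMSLR (0.79), to GCLC OSBPL6 (0.84), to HMOX1 STK32A (0.63) and to GPX4 MSRB2 (0.84). For SLC7A11 GCLC itself came first, then XPOT (0.73) and SLC38A1 (0.71), and for GPX3 GPAT2, CDH4 and PHYHD1 (0.97 each). Within the lines GPX3 varied mainly in HS578T, where it moved with the MDA-MB-231 marker genes, and the part of these in its likeness to other genes was not tested.

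Of 24 other NRF2 target genes, 20 were higher and 0 lower in SUM159PT than in MDA-MB-231 controls by edgeR, where 31.8% of all genes were higher, with a median of 1.24 against 0.06 over all genes. The aldo-keto reductases AKR1C1 (7.67 ± 0.556 SE) and AKR1C2 (7.60 ± 0.579) differed most. With siNRP1#3, the knockdown in which NQO1 fell in all 3 lines, 6 of these 24 fell and 0 rose in SUM159PT (5.5% of all genes fell), 5 fell and 0 rose in MDA-MB-231 (14.3%), and 6 fell and 0 rose in HS578T (2.34%). AKR1B10 was among them in each line, at -2.30 ± 0.574, -1.40 ± 0.38 and -2.99 ± 0.545, and after subtraction of reads of other lines 4 still fell in HS578T (AKR1B10 at -2.96, adjusted p = 0.00859). PRDX1, a peroxiredoxin, fell with siNRP1#3 in each line, by 1.43 (SUM159PT), 1.00 (MDA-MB-231) and 0.83 (HS578T). It rose with siNRP1#5 in each line, by 0.79, 0.62 and 0.74 in the same order (0.92 for HS578T after the subtraction). With siNRP1#5 in MDA-MB-231, where 29.4% of all genes were called, 4 rose and 5 fell, among them the thioredoxin TXN (0.67 ± 0.171) and the efflux pump ABCC3 (-1.40 ± 0.247). With shNRP1#5 in MDA-MB-231 (20.7% of all genes called), 5 rose and 2 fell, led by OSGIN1 (1.14 ± 0.175) and the ferritin light chain FTL (0.91 ± 0.146). The fall with siNRP1#3 was not seen with shNRP1#3, which also targets the transmembrane forms. There 0 rose and 1 fell in SUM159PT (1.4% of all genes called). In MDA-MB-231 2 rose and 0 fell (3.65%), and in HS578T 0 were called (0.0356%).

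Among 9 regulators of NRF2, NFE2L2 and KEAP1 were not called in any knockdown comparison. BACH1, the competing repressor, rose with siNRP1#5 in MDA-MB-231 (1.10 ± 0.202, adjusted p = 0.000426) and in HS578T (1.51 ± 0.33, adjusted p = 0.00527, and 1.73 after subtraction of reads of other lines). SQSTM1, which binds KEAP1, fell with siNRP1#5 in MDA-MB-231 by 0.67 (SE 0.172), as did the small MAF genes MAFG (by 0.52) and MAFF (by 0.69). MAFF rose in HS578T with siNRP1#3 (1.22 ± 0.276, adjusted p = 0.0188, and 1.27 after the subtraction). The BACH1 effect differed between siNRP1#5 and shNRP1#5 in MDA-MB-231 by 1.13 (SE 0.284, adjusted p = 0.00737). In SUM159PT NFE2L1 fell with siNRP1#3 by 1.10 (SE 0.299).

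Of 7 amino acid response genes, which include ATF4 and its targets, 4 rose in HS578T with each siRNA, as deposited and after the subtraction. Over all genes, as deposited, 4.65% were called with siNRP1#3 and 18.7% with siNRP1#5 (10.1% higher). DDIT3, a stress transcription factor, rose by 1.80 ± 0.239 with siNRP1#3 and by 2.36 ± 0.243 with siNRP1#5. In MDA-MB-231 2 rose and 0 fell with siNRP1#3 (SESN2 at 0.93 ± 0.213, ATF4 at 0.50 ± 0.14), near the 25.7% of all genes called. SESN2 alone rose with siNRP1#5 (0.74 ± 0.213), where 29.4% of all genes were called. With shNRP1#5 in that line DDIT3 (0.86 ± 0.2), PSAT1 (0.64 ± 0.166) and ATF4 (0.42 ± 0.14) rose and 0 fell (20.7% of all genes called, 8.79% higher). In SUM159PT siNRP1#3, TRIB3 and PSAT1 fell by 1.80 and 2.21, where 5.5% of all genes fell. Among 21 other glutathione genes (20 tested), 6 rose and 2 fell with shNRP1#5 in MDA-MB-231 (20.7% of all genes called), among them SLC3A2, the partner chain of SLC7A11 (0.90 ± 0.164), and 3 rose and 7 fell with siNRP1#5 (29.4%), with GSTM3 at -1.89 ± 0.121. In HS578T siNRP1#5, 4 rose and 1 fell, near the 18.7% of all genes called. After the subtraction 2 rose and 2 fell, and MGST2 went from 2.43 to -0.59 (adjusted p = 0.769).

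Of 13 peroxiredoxin, thioredoxin, dismutase and catalase genes, 2 rose and 2 fell in MDA-MB-231 siNRP1#5, a share near the 29.4% of all genes, with mitochondrial TXNRD2 at 1.26 ± 0.125 and SOD2 at -2.06 ± 0.252. TXNRD2 also rose in SUM159PT siNRP1#5 by 1.84 (SE 0.303), where 2 of the 13 rose and 1 fell (17.9% of all genes called). Of 8 ferroptosis genes, 3 fell in MDA-MB-231 siNRP1#5 (14.9% of all genes fell), namely TFRC, the transferrin receptor (by 1.27), the iron exporter SLC40A1 (by 0.92) and AIFM2, a ferroptosis suppressor (by 0.69). AIFM2 fell with siNRP1#3 too, by 0.48 in MDA-MB-231 and by 0.86 in SUM159PT. There 2 and 1 of the 8 fell and 0 rose, where 14.3 and 5.5% of all genes fell. Of 6 genes of selenoprotein synthesis, 1 rose with siNRP1#5 in SUM159PT and 2 in MDA-MB-231, where 17.9 and 29.4% of all genes were called, and 0 fell. PSTK rose in both (2.02 ± 0.306 and 0.93 ± 0.195). In HS578T siNRP1#5, 0 rose and 1, EEFSEC, fell (18.7% of all genes called). After subtraction of reads of other lines EEFSEC was at -1.19 (adjusted p = 0.00823 by edgeR).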

How the data were processed

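The authors trimmed reads with Trim Galore 0.6.5, aligned them with STAR 2.7.2b to GRCh38 and quantified them with RSEM 1.3.3 (Ensembl 114). The deposited expected counts per gene are not scaled, and the deposited TPM and isoform percent come from the same step per the authors' methods. Every column had a sample (0 without). Expected counts were rounded and tested with edgeR 4.0.16 in R 4.3.3 (filterByExpr, TMM, glmQLFit with robust = TRUE, glmQLFTest). A model per cell line had 6 group means, and a model of 52 samples had 18. Adjusted p-values (Benjamini-Hochberg) covered all 20067, 18800, 19661 or 23416 genes tested, with a threshold of 0.05. SE is the size of the log2 fold change divided by the square root of F. Alternatives used DESeq2 1.42.0, RLE factors, no filter, a replicate block, only the groups compared, limma 3.58.1 on log2(TPM + 0.1), subtraction of reads of other lines, and single samples left out. Python 3.11.15 and matplotlib 3.10.9 drew the plots.

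On simulated counts with 200 genes changed by 1.5 on the log2 scale, siNRP1#3 against siNT recovered 53.5, 80.5 and 41.0% of them in SUM159PT, MDA-MB-231 and HS578T. Markers of another line were genes with a mean of at most 0.5 CPM in the controls of the own and the remaining line and at least 20 CPM in those of the other. This rule was chosen after the data were seen, since requiring the limits in every control left 3 genes for MDA-MB-231 RNA in HS578T. Subtracted counts assumed the mean levels of the other line in its siNT controls for siRNA samples and its shNT controls for shRNA samples. Coordinates come from a GENCODE release earlier than the authors', with the same build and gene identifiers. Members and gene lists were chosen with earlier results of these data known. The genes named are all members, plus, from each further list, all called genes or the highest and lowest of them (PRDX1, AKR1B10, TXN, BACH1, SLC3A2, TXNRD2 and AIFM2 in several comparisons).

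Same-numbered samples deviated together in every pair in SUM159PT siRNA (7 of 7 pairs, median r = 0.292) and HS578T shRNA (7 of 7, median 0.412), so replicate numbers were read as pairs there. The main models have no replicate term, and only the replicate block setting used this pairing. In the other sets between 1 and 5 of 9 pairs had r above 0.1. Replicates differed by a chi-square of at least 11 for each degree of freedom, so no sample was a copy.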

Additional observations from a re-analysis of the deposited data

Results flagged for a closer look

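The knockdown effect differed between cell lines for TXNRD1 with siNRP1#5 (adjusted p = 0.0215), for GPX3 with siNRP1#5 (adjusted p = 0.00192) and for NQO1 with shNRP1#5 (adjusted p = 0.0288), by the F test over 52 samples. After subtraction of reads of other cell lines the values for TXNRD1 and GPX3 were 0.167 and 1, while HS578T siNRP1#5 samples carried MDA-MB-231 marker genes at 13.4 to 26.0% of their level.

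In MDA-MB-231 the siNRP1#5 effect minus the shNRP1#5 effect, tested by an interaction term, was -1.91 for NQO1, -0.70 for GCLC, -1.84 for GCLM, -0.96 for SRXN1 and -1.51 for SLC7A11. No group was large enough to look for single samples far from the rest.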

How the results depend on the processing

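Of the 67 called member results, DESeq2 kept 66, RLE factors 66, no filter 64, the replicate block 66, only the groups compared 64, and limma on log2(TPM + 0.1) 55, with 0 reversed. On the TPM scale the median of all genes itself shifted, to -0.35 for siNRP1#5 against siNRP1#3 in SUM159PT and to -0.61 for HS578T against MDA-MB-231. Subtraction of reads of other lines kept 58 and lost 5, and left no value for the 3 called GPX3 results within HS578T and no difference for GPX3 between HS578T and SUM159PT. Leaving out samples kept 782 and lost 92 of the recomputed values, with 0 reversed. GPX3 in HS578T against SUM159PT went from 1.75 to 0 (adjusted p = 1) with reads subtracted, and turned to -0.40 with shNT controls alone.

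The number of members called in SUM159PT knockdowns was 1, and 2 with DESeq2, 5 with no filter, 3 with the replicate block and 1 to 3 with a sample left out. In HS578T it was 5, and 10 with no filter, 2 with reads subtracted and 3 to 7 with a sample left out. For unequal effects it was 3, and 8 with DESeq2, 11 with no filter, 1 with reads subtracted and 1 to 2 with a replicate number left out. The other counts stayed within 1.5 times in the other alternatives, with 10 to 17 against 14 in MDA-MB-231 knockdowns, 3 to 5 against 4 for shNT against siNT, 14 to 20 against 17 for reagents 5 against 3, 5 to 7 against 5 for the interaction and 15 to 16 against 18 for cell lines when samples were left out. The cause was not tested. Calls over all genes moved in these settings too. In SUM159PT siNRP1#3 they went from 1737 to 2565 with no filter and to 2472 with the replicate block. In HS578T they went from 914 to 1612 (siNRP1#3) and from 186 to 1076 (shNRP1#5) with no filter. For unequal siNRP1#3 effects they went from 801 to 1523 with DESeq2 and to 1451 with no filter. For unequal siNRP1#5 effects they went from 4268 to 5137 and to 4240. Over all genes, calls moved from 3590 to 59 (only the groups compared, SUM159PT siNRP1#5), from 1737 to 2694 (DESeq2, SUM159PT siNRP1#3), from 686 to 2044 (only the groups compared, MDA-MB-231 shNRP1#3) and from 7 to 146 (DESeq2, HS578T shNRP1#3).

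Where replicate numbers paired the samples, the block added GCLC and GPX4 in SUM159PT siNRP1#3 and changed no other knockdown call. Elsewhere samples share only a number, and the block added SLC7A11 (1.18) and GPX3 (1.93) in HS578T siNRP1#3, GCLM in MDA-MB-231 for shNT against siNT (-0.44) and shNRP1#5 against shNRP1#3 (0.43), and NQO1 in HS578T for shNT against siNT (-0.89), and lost TXNRD1 in SUM159PT for shNRP1#5 against shNRP1#3 (1.07). With 2 to 3 samples a group, uncalled members are not shown to be unchanged.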
